A study of Mus musculus with 288 samples.

Results

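The 10 genes described here are Slc2a1, Gpi1, Aldoa, Tpi1, Gapdh, Pgk1, Pgam1, Eno1, Pkm and Ldha, which encode a glucose transporter, 8 enzymes of glycolysis and the lactate dehydrogenase subunit that works just after it. They were chosen by name from the 23481 genes of the UMI count table, and all 10 were present. The cells were bone marrow-derived macrophages (BMDMs), grown ex vivo with M-CSF from the marrow of C57BL/6 mice with an age label of 12 weeks. They received DMSO, the solvent, or for 24 h a compound labelled as a CDK8 inhibitor. This was dCA (100 nM) in one set and BRD-6989 (1 µM) in the other. The sample labels give no duration for DMSO. Cells then stayed unstimulated (NoStim) or met CpG, FLA, LPS, MDP, MDP_LPS, Pam3cys, Poly(I:C), R848, SeV, TDB or Zymosan, and collected at 15, 30, 45, 60, 90, 120, 150 or 180 min. Each combination was 1 well, 96 on each plate. Each pretreatment filled 1 plate, so a compound cannot be told apart from its plate, and each stimulus kept its plate column and well tags on all 3 plates, so stimulus and well position cannot be told apart either. The labels name no separate cultures or animals, so p-values measure only the spread between these samples, which may be technical.

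Glycolysis splits glucose into pyruvate in the cytosol and yields ATP without oxygen; lactate dehydrogenase then turns pyruvate into lactate and restores the NAD+ that Gapdh uses. Macrophages that meet microbial products are known to raise glucose uptake and lactate output, and the transcription factors HIF-1 and MYC are known to drive many of these genes. Slc2a1 carries glucose into the cell. Gpi1 isomerises glucose 6-phosphate, Aldoa splits fructose bisphosphate, and Tpi1 interconverts the triose phosphates that result. Gapdh oxidises glyceraldehyde 3-phosphate, Pgk1 makes ATP in the next step, Pgam1 moves the phosphate group, Eno1 removes water, and Pkm makes pyruvate and ATP. CDK8 is a kinase of the Mediator complex, which links transcription factors to RNA polymerase II.

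RNA was counted at transcript 3' ends (3' DGE), where each molecule carries a random barcode (a unique molecular identifier, UMI). Levels are CPM, UMI counts per 1000000 UMI of a well or summed library, after removal of Rn45s, the ribosomal RNA precursor, and they serve to compare samples for 1 gene, not genes with each other. Wells held 21810 to 70797 such UMI (median 39471), so precision differed by gene. Gapdh had 35177 UMI in all and at least 46 in every well, Pkm 25595, Ldha 17362 and Aldoa 12186. Pgk1, Eno1, Tpi1, Pgam1 and Gpi1 had 9068, 7183, 5960, 5904 and 5247. Slc2a1 had only 649, with a median of 1 per well and 0 in 114 wells, so its changes carry wide errors. The cells held macrophage markers: 13 of the 13 listed markers present in the table had UMI, at a summed 10386 to 13742 CPM. Lists for other cell types were far lower. Of the T cell markers measured, 6 of 8 had UMI (summed 70.4 to 298 CPM, Cd3e and Cd3g at 0), of the neutrophil markers 7 of 8 (22.9 to 92.4, Elane at 0) and of the dendritic cell markers 5 of 8 (5.94 to 68.0, Flt3, Clec9a and Cd209a at 0). Of the stromal markers 4 of 8 had UMI (at most 37.6, Pdgfra at 0), of the B cell markers 2 of 6 (at most 11.9, Ms4a1 at 0) and of the erythroid markers 2 of 8 (at most 6.28, haemoglobin genes at 0).

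The genes lie on 6 chromosomes (GRCm38.p6, the mm10 assembly). Slc2a1 (chr4:119108745-119137330) and Eno1 (chr4:150236708-150248879) share chromosome 4, Tpi1 (chr6:124810586-124814158) and Gapdh (chr6:125161852-125166467) share chromosome 6, and Gpi1 (chr7:34201327-34230336), Ldha (chr7:46842274-46855627) and Aldoa (chr7:126795234-126800994) share chromosome 7. Pkm (chr9:59656576-59679372), Pgam1 (chr19:41911871-41918665) and Pgk1 (chrX:106187100-106203699) are each alone. Over all conditions Ldha and Gapdh were lower and Pgam1 higher with both inhibitors, and Pgk1 was called higher with BRD-6989 only (values below). The promoters of these 4 members are shown because their calls went in opposite directions. Each is the 300-base RefSeq promoter of GRCm38.p6, written 5′ to 3′ on the gene's strand, with every ACGTG, on either strand, in capitals. These letters are part of the hypoxia response element that HIF-1 binds.
Ldha, chr7:46845554-46845853, plus strand: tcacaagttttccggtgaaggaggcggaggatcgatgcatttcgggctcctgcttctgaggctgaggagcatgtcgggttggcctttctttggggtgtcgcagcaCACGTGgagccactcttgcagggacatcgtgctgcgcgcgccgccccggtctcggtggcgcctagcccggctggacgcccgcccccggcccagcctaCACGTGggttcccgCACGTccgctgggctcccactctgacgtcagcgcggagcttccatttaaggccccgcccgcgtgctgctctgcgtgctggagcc
Gapdh, chr6:125165724-125166023, minus strand: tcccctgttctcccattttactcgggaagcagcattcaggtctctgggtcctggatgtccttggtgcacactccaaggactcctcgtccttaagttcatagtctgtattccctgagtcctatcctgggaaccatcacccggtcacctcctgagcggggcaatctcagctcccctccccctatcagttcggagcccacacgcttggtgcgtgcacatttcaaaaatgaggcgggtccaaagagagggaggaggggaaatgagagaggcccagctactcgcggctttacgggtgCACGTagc
Pgam1, chr19:41911621-41911920, plus strand: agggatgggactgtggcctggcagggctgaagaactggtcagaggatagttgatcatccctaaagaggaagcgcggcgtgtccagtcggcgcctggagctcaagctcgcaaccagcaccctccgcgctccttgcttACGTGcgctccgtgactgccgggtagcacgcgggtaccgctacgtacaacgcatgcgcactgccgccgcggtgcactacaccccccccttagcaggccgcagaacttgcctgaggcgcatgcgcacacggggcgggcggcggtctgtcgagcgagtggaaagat
Pgk1, chrX:106186850-106187149, plus strand: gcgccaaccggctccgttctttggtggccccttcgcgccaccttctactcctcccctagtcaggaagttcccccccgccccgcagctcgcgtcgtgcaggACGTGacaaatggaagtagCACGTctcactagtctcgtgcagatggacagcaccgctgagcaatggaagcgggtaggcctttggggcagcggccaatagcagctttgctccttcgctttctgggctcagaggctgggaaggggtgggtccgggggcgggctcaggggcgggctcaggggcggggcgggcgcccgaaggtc
This Ldha promoter held 5 matches, Pgk1 2, and Gapdh and Pgam1 1 each; the palindrome CACGTG, also the MYC-binding E-box, holds ACGTG on both strands and counts as 2. A second listed start of Ldha had none. Over all 10 members, 8 of 16 listed promoters and 7 genes had at least 1 match, while Eno1, Tpi1 and Gpi1 had none in these windows. Of all 32851 listed promoters 19.6% had at least 1 match and 0.183% had 5 or more. Genes with matches were found on both sides, among those that were lower and those that were higher.

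The first comparison asked how each inhibitor changed these genes over the whole set of conditions. Aldoa, Gapdh, Eno1, Pkm and Ldha were lower on both inhibitor plates, Gpi1 and Tpi1 passed as lower with BRD-6989, and Pgam1 was higher on both. Levels were taken in 36 libraries, each the sum of the 8 times of 1 pretreatment and stimulus (227325 to 449471 UMI), so every pretreatment had 12. With dCA, 5 of 10 genes fell and 1 rose (edgeR quasi-likelihood test, stimulus as a block, Benjamini-Hochberg adjusted p under 0.05 over 5691 genes). Among all genes tested 8.10% fell and 9.80% rose. With BRD-6989, 7 fell and 2 rose, where 10.0% of all genes fell and 10.9% rose. The median change over the 10 genes was -0.19 on the log2 scale with dCA and -0.34 with BRD-6989, against -0.01 and 0.02 over all genes. Both comparisons use the same DMSO wells, so they are not independent of each other. Summed over the 10 genes, the share of a well's UMI was 1.27% ± 0.175 (SD, n = 96 wells) with DMSO, 1.02% ± 0.145 with dCA and 0.973% ± 0.136 with BRD-6989. In cultures read in bulk, less of these RNAs per cell and fewer cells that hold them cannot be told apart.

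Gapdh separated the DMSO plate from both inhibitor plates, which overlapped each other. Its level ran from 3354 to 4094 CPM with DMSO (median 3801, n = 12), from 2571 to 3135 with dCA (median 2814) and from 2336 to 3118 with BRD-6989 (median 2670). Neither inhibitor group overlapped DMSO, and all 12 conditions were lower with each compound. The log2 change was -0.36 ± 0.04 (SE) with dCA (edgeR adjusted p = 8.18e-12) and -0.45 ± 0.04 with BRD-6989 (edgeR adjusted p = 4.63e-15). The unscaled mean levels were 25.7% and 29.0% lower, which is -0.43 and -0.50 on the log2 scale; the tests use TMM scaling and these means do not.

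Aldoa fell with both compounds. It ran from 1064 to 1629 CPM with DMSO (median 1405), 829 to 1254 with dCA (median 974) and 689 to 981 with BRD-6989 (median 857). BRD-6989 did not overlap DMSO, dCA did, and all 12 conditions were lower with either. The changes were -0.44 ± 0.06 (edgeR adjusted p = 3.36e-07) and -0.67 ± 0.06 (edgeR adjusted p = 2.06e-12), the second being the largest fall among the 10 genes.

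Ldha, which makes lactate, fell about equally with both. Levels ran from 1703 to 2866 CPM with DMSO (median 1834), 1084 to 1830 with dCA (median 1259) and 1058 to 1869 with BRD-6989 (median 1233). The highest library of every plate was Poly(I:C), and only this library of each inhibitor plate reached the DMSO range. All 12 conditions were lower with each compound, with changes of -0.50 ± 0.05 (edgeR adjusted p = 1.51e-10) and -0.54 ± 0.05 (edgeR adjusted p = 1.1e-11).

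Eno1 was lower in 12 of 12 conditions with each compound, at a mean of 732 ± 136 (SD) CPM with DMSO, 584 ± 135 with dCA and 555 ± 134 with BRD-6989. It fell by 0.27 ± 0.07 (edgeR adjusted p = 0.00185) and by 0.36 ± 0.07 (edgeR adjusted p = 1.9e-05), and the dCA call was lost without the stimulus block (edgeR adjusted p = 0.119). Pkm had means of 2504 ± 321, 2208 ± 319 and 2001 ± 273 CPM; it fell by 0.28 ± 0.04 with BRD-6989 (edgeR adjusted p = 8.12e-07), in 12 of 12 conditions. With dCA its fall of 0.12 ± 0.04 was close to the threshold (edgeR adjusted p = 0.0429), in 11 of 12 conditions, and the call was lost when any of NoStim, LPS, MDP, MDP_LPS, Pam3cys, Poly(I:C), R848, TDB or Zymosan was left out.

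Gpi1 and Tpi1 passed the test with BRD-6989 alone. Gpi1 ran from 394 to 952 CPM with DMSO (median 523), 362 to 664 with dCA (median 439) and 280 to 572 with BRD-6989 (median 372). Its change was -0.49 ± 0.08 with BRD-6989 (edgeR adjusted p = 2.13e-06) and -0.20 ± 0.08 with dCA (edgeR adjusted p = 0.066). Tpi1 had means of 595 ± 144, 506 ± 124 and 457 ± 65.0 CPM. Its change was -0.32 ± 0.08 with BRD-6989 (edgeR adjusted p = 0.00295) and -0.17 ± 0.08 with dCA (edgeR adjusted p = 0.162); the compounds' own difference in Tpi1 was 0.15 ± 0.08 and not called (edgeR adjusted p = 0.411).

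Pgam1 and Pgk1, which act one after the other in the pathway, went the other way. Pgam1 ran from 299 to 605 CPM with DMSO (median 442), 327 to 710 with dCA (median 505) and 438 to 817 with BRD-6989 (median 583). The groups overlapped, and 11 of 12 conditions were higher with each compound; the exception was NoStim. Pgam1 rose by 0.33 ± 0.09 with dCA (edgeR adjusted p = 0.00402) and by 0.47 ± 0.09 with BRD-6989 (edgeR adjusted p = 2.48e-05). The dCA call was lost with total read counts (0.23, edgeR adjusted p = 0.143) and in wells of 60 min and later (0.28, edgeR adjusted p = 0.103). Pgk1 ran from 449 to 998 CPM with DMSO (median 712), 590 to 928 with dCA (median 780) and 632 to 1119 with BRD-6989 (median 865). It rose by 0.30 ± 0.08 with BRD-6989 (edgeR adjusted p = 0.00331), in 10 of 12 conditions, while its change of 0.21 ± 0.08 with dCA missed the threshold (edgeR adjusted p = 0.0531), with 7 of 12 conditions higher. Slc2a1, with few UMI, had means of 54.7 ± 36.1, 60.8 ± 23.7 and 53.8 ± 23.3 CPM and changes of 0.30 ± 0.29 and 0.08 ± 0.28, neither called (edgeR adjusted p = 0.553 and 0.881).

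**Figure D1:**
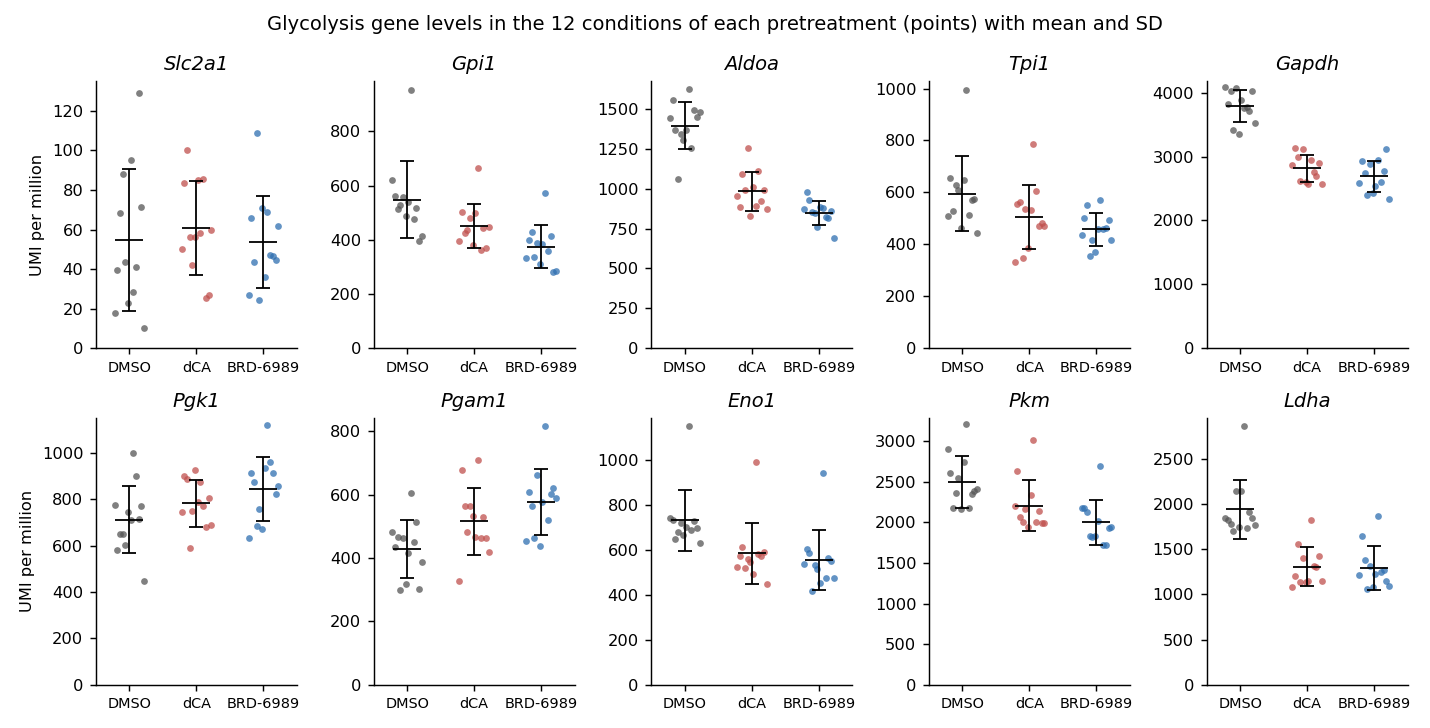
Level of each gene in CPM (y axis, from 0) for DMSO, dCA and BRD-6989 (x axis). Each point is 1 of 12 conditions with its 8 times summed, and the black bars are mean and SD. Gapdh points with either inhibitor (2336 to 3135) lie below all DMSO points (3354 to 4094), and the top point of Eno1, Gpi1, Tpi1, Ldha and Pkm in every group is Poly(I:C).

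The plates also differed in the share of UMI taken by Rn45s, which was 52.7% ± 6.88 (SD, n = 96 wells) with DMSO, 49.0% ± 7.04 with dCA and 43.6% ± 6.75 with BRD-6989. With this share as a covariate, Gapdh, Ldha and Eno1 kept their calls with both compounds (BRD-6989: -0.48, -0.68 and -0.50, edgeR adjusted p = 1.03e-05, 6.26e-05 and 0.0377). The calls of Aldoa, Gpi1, Tpi1, Pkm and Pgam1 with BRD-6989 were lost (-0.33, -0.51, -0.47, -0.25 and 0.24), Pgk1 turned to -0.13, and Pgam1 with dCA was 0.24 (edgeR adjusted p = 0.181). Summed macrophage markers were 10508 to 13742 CPM with DMSO, 10386 to 12820 with dCA and 11099 to 13529 with BRD-6989, overlapping ranges. Of 12 markers tested 3 rose and 3 fell with dCA, where 9.80% of all genes rose and 8.10% fell. With BRD-6989 5 rose and 5 fell, where 10.9% rose and 10.0% fell. The part of these markers in the changes was not tested.

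**Figure D2:**
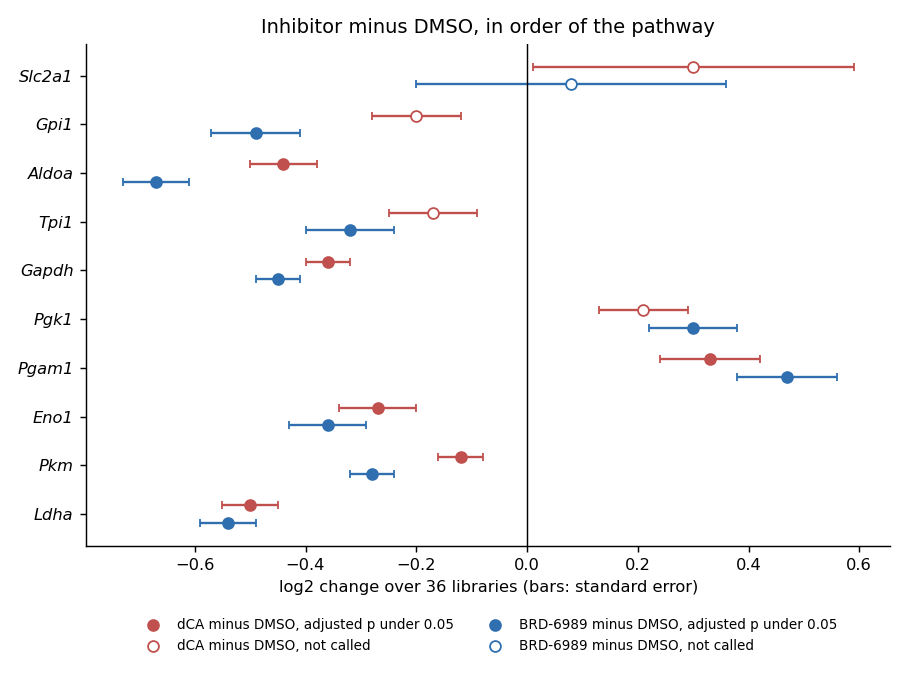
Log2 change against DMSO (x axis) of each gene, listed in the order of the pathway from uptake to lactate (y axis), with standard errors; filled points passed an adjusted p of 0.05. Filled points lie left of 0 except Pgam1 with both compounds (0.33 and 0.47) and Pgk1 with BRD-6989 (0.30).

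Compared directly with each other, the compounds differed in 3 of the 10 genes, each higher with dCA, where 1.74% of all genes tested were higher with dCA. The doses were 100 nM and 1 µM, so the difference is between these treatments and plates and not at a matched dose. Gpi1 was 0.29 ± 0.08 higher (log2 ± SE, edgeR adjusted p = 0.0277), Aldoa 0.23 ± 0.06 (edgeR adjusted p = 0.0314) and Pkm 0.16 ± 0.04 (edgeR adjusted p = 0.0218), each in 11 of 12 conditions. Leaving out MDP or Pam3cys ended all 3 calls; other single conditions left between 1 and 3. Without the stimulus block 0 of the 3 was called. For the other genes the difference was not resolved: it was 0.04 ± 0.05 for Ldha, 0.09 ± 0.04 for Gapdh, 0.10 ± 0.07 for Eno1, -0.14 ± 0.09 for Pgam1 and -0.09 ± 0.08 for Pgk1.

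In cells without a stimulus the same question could be put to 8 wells per pretreatment, 1 per time. Gapdh was again lower with each compound. It ran from 3344 to 4771 CPM with DMSO (median 4177), 1983 to 3337 with dCA (median 2853) and 2108 to 3297 with BRD-6989 (median 2513). No inhibitor well reached the lowest DMSO well, and all 8 times were lower with either compound. The changes were -0.51 ± 0.13 (edgeR adjusted p = 0.00972) and -0.57 ± 0.13 (edgeR adjusted p = 0.00141), with time as a block over 5834 genes, whose median change with BRD-6989 was 0.104. Gapdh was the only member called, where 0.137% of genes fell with dCA and 0.274% with BRD-6989. Ldha fell short of the threshold with dCA (-0.66 ± 0.19, edgeR adjusted p = 0.052), with means of 1832 ± 719, 1096 ± 301 and 1230 ± 267 CPM. The rises of Pgam1 and Pgk1 over all conditions were not repeated as calls here. Pgam1 changed by -0.35 ± 0.37 with dCA and 0.13 ± 0.36 with BRD-6989. Pgk1 changed by -0.07 ± 0.26 and -0.27 ± 0.27, and with BRD-6989 it was lower at 7 of 8 times. At an unadjusted p under 0.05, 4 members passed with dCA and 5 with BRD-6989. The calls of Gapdh were lost without the time block with dCA (edgeR adjusted p = 0.0521) and with the Rn45s share as a covariate with BRD-6989 (edgeR adjusted p = 0.167).

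The next comparison asked what each of the 11 stimuli did to these genes, in the 180 wells of 60 min and later with pretreatment and time as covariates. Of 110 tests of a member with a stimulus, 6 passed (edgeR, adjusted within each stimulus), and 26 had an unadjusted p under 0.05. Over all genes and stimuli 1.64% of tests passed as higher and 0.361% as lower. The 6 were Eno1, Gpi1, Tpi1 and Ldha with Poly(I:C), Slc2a1 with LPS and Pkm with R848. Averaged over all 11 stimuli, 0 members passed and 2 had an unadjusted p under 0.05. No member was called with CpG, FLA, MDP, MDP_LPS, Pam3cys, SeV, TDB or Zymosan.

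With Poly(I:C), a double-stranded RNA analog that TLR3 recognises, 4 members rose, where 2.08% of genes did. Eno1 rose by 0.87 ± 0.16 (edgeR adjusted p = 4.12e-05), Gpi1 by 0.87 ± 0.20 (edgeR adjusted p = 0.00227), Tpi1 by 0.79 ± 0.20 (edgeR adjusted p = 0.00576) and Ldha by 0.72 ± 0.13 (edgeR adjusted p = 4.12e-05). Eno1 was 1024 ± 290 CPM (SD, n = 15 wells; lowest 668, median 1014, highest 1846) against 595 ± 264 in NoStim wells of the same times (lowest 398, median 489, highest 1233). Tpi1 was 767 ± 196 against 457 ± 174, Ldha 2121 ± 698 against 1333 ± 538 and Gpi1 753 ± 265 against 428 ± 155 CPM. Single wells overlapped, but the Poly(I:C) well was above the NoStim well of its plate and time in 13 of 15 pairs for Eno1 and Ldha, 14 of 15 for Gpi1 and 11 of 15 for Tpi1. Tpi1 was below NoStim on the BRD-6989 plate at 120, 150 and 180 min (565, 593 and 487 against 625, 672 and 510 CPM). It was also below on the DMSO plate at 90 min (756 against 810 CPM). Gapdh (0.09 ± 0.09) and Aldoa (-0.08 ± 0.16) were not called.

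The same wells were then set against those of the other 10 stimuli. This test was added after the Poly(I:C) calls were seen and reuses their wells, so it is no separate support for them. Against these, Eno1 (0.89 ± 0.11), Gpi1 (0.84 ± 0.14), Tpi1 (0.68 ± 0.14), Ldha (0.59 ± 0.09) and Pkm (0.52 ± 0.08) rose, where 2.96% of genes did. Summed over the 8 times, Poly(I:C) was the highest of the 12 conditions on all 3 plates for Ldha, Pgam1, Eno1, Pkm, Tpi1 and Gpi1, on 2 plates for Pgk1 and on 1 for Aldoa; Gapdh and Slc2a1 were never highest there. Eno1, for instance, was 1150, 988 and 943 CPM with Poly(I:C) on the DMSO, dCA and BRD-6989 plates, and the next condition reached 742, 614 and 603. In these 36 libraries 7 members rose against NoStim, where 2.74% of genes did, with Pgam1 (0.78 ± 0.17), Pgk1 (0.51 ± 0.15) and Pkm (0.34 ± 0.08) added to the 4.

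**Figure D3:**
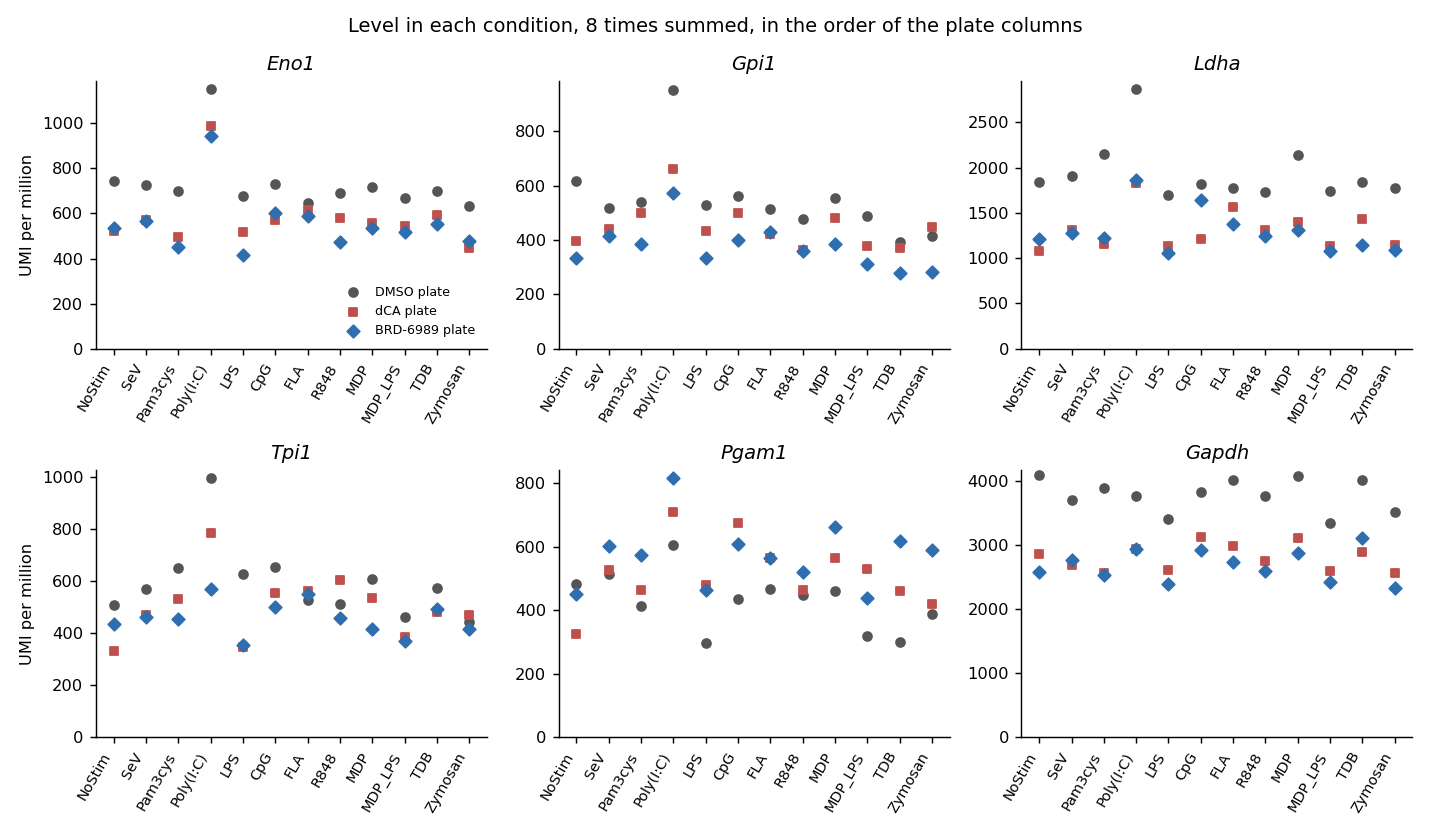
Level in CPM (y axis, from 0) in each condition (x axis, in the order of the plate columns), with 1 point per plate and the 8 times summed. Poly(I:C) is the top condition on all 3 plates for Eno1, Gpi1, Ldha, Tpi1 and Pgam1, and not for Gapdh.

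Part of this rise was present in the early wells. At 15 to 45 min Tpi1 (1.18 ± 0.25), Pgam1 (1.33 ± 0.29), Eno1 (0.82 ± 0.21) and Ldha (0.72 ± 0.17) were already higher with Poly(I:C) than NoStim (edgeR adjusted p = 0.00384, 0.00407, 0.0358 and 0.0141), where 0.367% of genes were. Gpi1, called later, was not called then (0.62 ± 0.27, edgeR adjusted p = 0.454), and Pgam1, called then, was not called later. For Pgam1 and Tpi1 the early wells of the other 10 stimuli also had higher means than NoStim wells. As a group these 10 were not tested against NoStim at early times. Pgam1 was 348 ± 151 CPM in NoStim wells, 512 ± 209 with the other 10 stimuli and 812 ± 236 with Poly(I:C). Tpi1 was 387 ± 162, 531 ± 190 and 829 ± 374. The fitted early mean of 11 stimuli, which includes Poly(I:C), was 0.64 ± 0.23 higher for Pgam1 and 0.55 ± 0.20 for Tpi1. For Eno1 it was 0.05 ± 0.16 and for Ldha 0.12 ± 0.13, and none of these was called. At 15 min alone Eno1 was 1134 to 1286 CPM in the 3 Poly(I:C) wells and 503 to 743 in the 3 NoStim wells, without overlap. Ldha and Gpi1 overlapped at 15 min. Between early and late Poly(I:C) wells 0 members were called (edgeR; 0 with an unadjusted p under 0.05), where 0.983% of genes were. Ifit1, an interferon-induced gene, showed the other time course: with Poly(I:C) it was 50.1 ± 49.6 CPM at 15 to 45 min against 82.9 ± 98.1 in NoStim wells, and 1238 ± 1325 against 71.3 ± 51.3 from 60 min on. Ifit1 rose by 5.33 ± 0.95 from early to late Poly(I:C) wells (edgeR adjusted p = 0.000633). Cxcl10, a chemokine gene, rose by 3.07 ± 0.59 (edgeR adjusted p = 0.00123).

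Other features of the Poly(I:C) wells differed over the same times. They stood in plate column 4 on every plate. The Rn45s share was 37.6% ± 4.81 at 15 to 45 min and 40.3% ± 6.64 later with Poly(I:C), against 47.5% ± 6.52 and 51.9% ± 5.71 in NoStim wells, and the median UMI count per early well was 48513 against 35662. Over all times and plates, Poly(I:C) wells had the lowest mean Rn45s share of the 12 conditions (39.3%, next R848 at 46.8%). Their median UMI count was the highest (47959, next FLA at 43161). With the Rn45s share as a covariate, Eno1 (0.69), Ldha (0.67) and Gpi1 (0.77) kept their calls at 60 min and later and Tpi1 (0.66, edgeR adjusted p = 0.105) lost its call; in wells of 120 min and later only Eno1 of the 4 passed. In the DMSO wells alone, 5 per condition, the changes of Eno1, Gpi1, Tpi1 and Ldha were 0.47, 1.06, 0.97 and 0.76 and 0 were called (edgeR; 4 members with an unadjusted p under 0.05). Over the 3 plates at 60 min and later, 4 of 12 macrophage markers tested rose and 0 fell, where 2.08% of all genes rose. They were Lyz1 (0.81 ± 0.13) and Lyz2 (0.88 ± 0.13), which encode lysozymes, Cd14 (0.77 ± 0.23), an LPS co-receptor, and C1qb (0.70 ± 0.12), a complement gene. The part of column, well tag, depth and Rn45s share in the rise was not tested beyond these values.

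**Figure D4:**
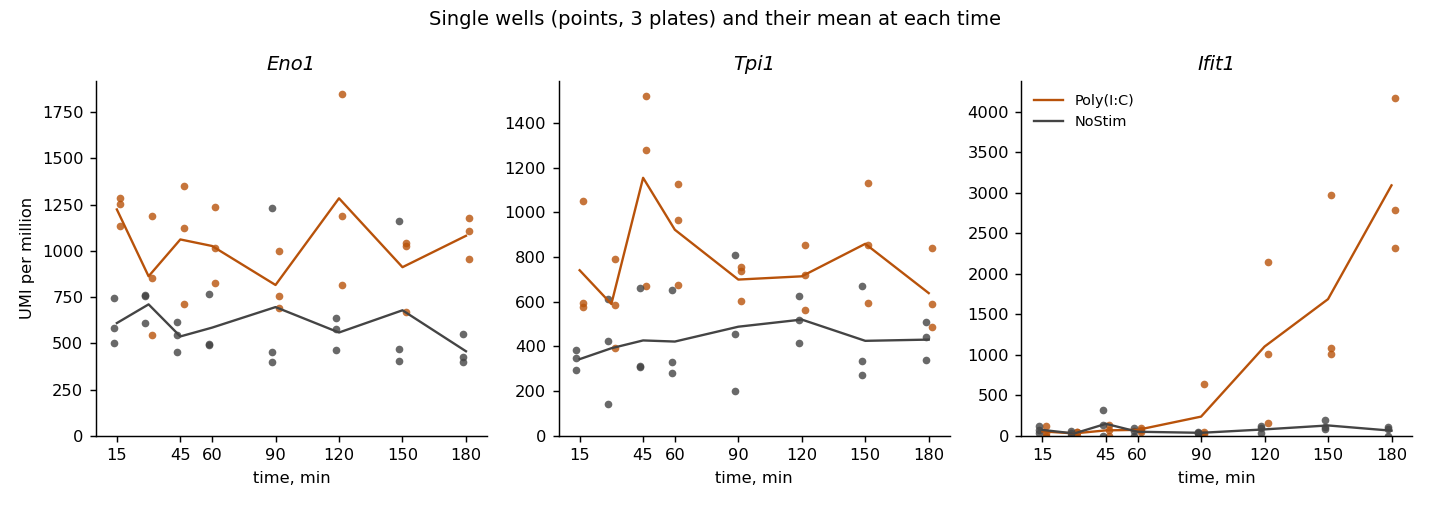
Level in CPM (y axis, from 0) over time in min (x axis) in Poly(I:C) and NoStim wells; points are single wells of the 3 plates and lines join their means. The mean lines of Eno1 and Tpi1 are higher with Poly(I:C) from 15 min on, whereas Ifit1 is apart only at the later times. On the BRD-6989 plate Tpi1 with Poly(I:C) was below NoStim at 30, 120, 150 and 180 min.

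Slc2a1, the glucose transporter gene, rose with LPS, a bacterial cell wall product that TLR4 recognises. From 60 min on, 15 LPS wells held 61 UMI of Slc2a1, or 107 CPM (exact 95% Poisson interval 81.8 to 137, counting error only), and 15 NoStim wells held 11, or 18.9 CPM (9.42 to 33.8). By plate, the LPS wells gave 99.0, 89.7 and 125 CPM with DMSO, dCA and BRD-6989, and the NoStim wells 0, 31.3 and 23.0; all 5 DMSO NoStim wells had 0 UMI. The log2 change was 2.40 ± 0.73 (edgeR adjusted p = 0.0342), where 3.24% of genes rose and the median over all genes was -0.12. At 15 to 45 min the levels were 52.6 and 54.8 CPM, and the change was -0.06 ± 1.01. The call was lost when all times were summed (1.55, edgeR adjusted p = 0.149), in wells of 120 min and later (2.04, edgeR adjusted p = 0.235), and in DMSO wells alone (4.63, edgeR adjusted p = 0.16). The late NoStim level was the lowest of the 12 conditions, and the mean of all 11 stimuli was 1.69 ± 0.62 higher without passing the test (edgeR adjusted p = 0.156). The direction was not particular to LPS: Pam3cys (2.21 ± 0.74) and SeV (2.12 ± 0.75) were close to it, not called (edgeR adjusted p = 0.106 and 0.504). MDP_LPS, which also holds LPS, gave 55.9 CPM at these times, a change of 1.49 ± 0.74 that was not called (edgeR adjusted p = 0.384).

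**Figure D5:**
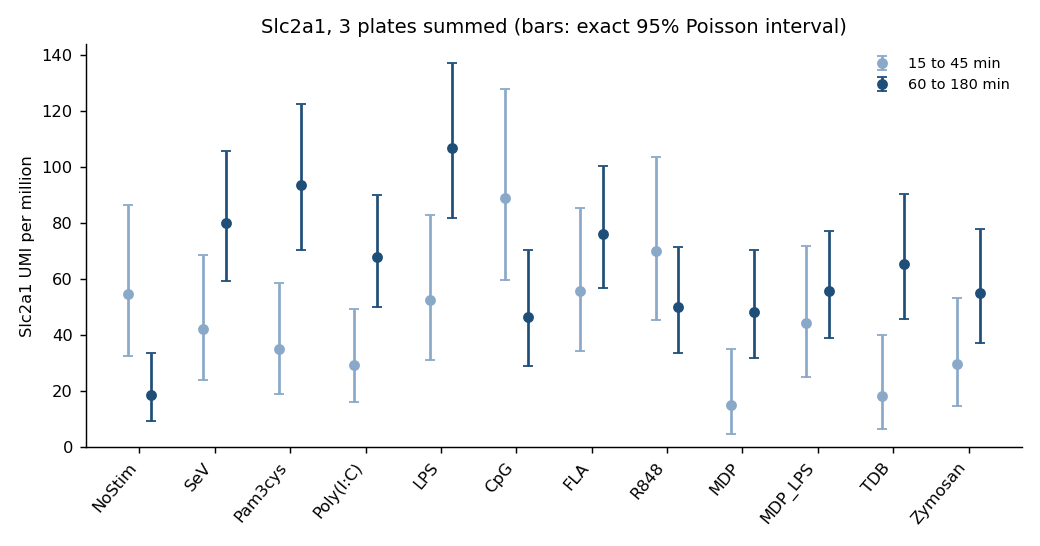
Slc2a1 in CPM (y axis, from 0) in each condition (x axis) at 15 to 45 min and at 60 to 180 min, with the 3 plates summed and exact 95% Poisson intervals that cover counting error only. At the later times NoStim is lowest (18.9) and LPS highest (107).

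Pkm was lower with R848, a synthetic agonist of TLR7, and in stimulated cells at late times. With R848 it changed by -0.38 ± 0.11 (edgeR adjusted p = 0.0312), where 0.537% of genes fell; at 15 to 45 min the change was -0.11 ± 0.14, and it was not called with total read counts (edgeR adjusted p = 0.236), in DMSO wells alone (0.296) or with all times summed (0.141). The direction was not particular to R848: at an unadjusted p under 0.05 Pkm was also lower with MDP_LPS (-0.33), MDP (-0.32), LPS (-0.30), TDB (-0.30), Zymosan (-0.29) and SeV (-0.24), none called after adjustment. Over all 8 times Pkm was 1967 ± 230 CPM with R848 (SD, n = 3 plates) and 2431 ± 411 in NoStim libraries. In stimulated cells Pkm was 2373 ± 409 CPM at 15 to 45 min (SD, n = 33 libraries) and 2049 ± 359 at 120 to 180 min, lower in 27 of 33. The late against early change was -0.17 ± 0.04 (edgeR adjusted p = 0.00482); 5.15% of the 3764 genes tested fell, so 1 of 10 members is not far from the background. It was lost with total read counts (edgeR adjusted p = 0.122), in DMSO libraries alone (edgeR adjusted p = 0.123) and without the block (edgeR adjusted p = 0.0551). No other member was called over time, from Slc2a1 at 0.66 ± 0.33 to Pgam1 at -0.11 ± 0.08. Whether the late against early change differed between stimulated and NoStim cells was tested too: 0 members passed (edgeR; 1, Pgam1, with an unadjusted p under 0.05), where 0.0531% of genes did.

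Whether the inhibitors altered the response to stimuli was tested as an interaction at 60 min and later. With dCA 0 members passed and with BRD-6989 0 (edgeR), in each case with 0% of genes called. At an unadjusted p under 0.05 there were 2 with dCA, Pgam1 (1.20 ± 0.38) and Slc2a1 (-3.33 ± 1.66), and 3 with BRD-6989, Pgk1 (0.87 ± 0.32), Pgam1 (0.95 ± 0.37) and Eno1 (0.70 ± 0.31). The comparison rests on 5 NoStim wells per plate, and a difference that misses the threshold does not show that the responses were alike.

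Of the other genes of the pathway, 13 of 36 listed glycolysis and lactate genes passed the filter on low counts and were tested over the 36 libraries. With dCA 5 fell and 0 rose: Hk1, a hexokinase (-0.95 ± 0.23), Pgm2, a phosphoglucomutase (-0.78 ± 0.27), Slc16a3, a lactate exporter (-0.74 ± 0.17), Slc2a6, a hexose transporter (-0.61 ± 0.15), and Pfkl, a phosphofructokinase (-0.54 ± 0.18). With BRD-6989 5 fell and 0 rose: Slc16a3 (-0.96 ± 0.17), Pfkl (-0.86 ± 0.18), Hk1 (-0.72 ± 0.22), Slc2a6 (-0.67 ± 0.15) and Bsg, the chaperone of lactate transporters (-0.42 ± 0.12). Slc16a3 went from 157 ± 43.2 CPM with DMSO to 89.96 ± 30.3 with dCA and 78.3 ± 25.1 with BRD-6989. Among all genes tested 8.10% fell with dCA and 10.0% with BRD-6989. The medians over the tested genes of this list were -0.61 and -0.48, against -0.01 and 0.02 over all genes. Slc2a6 rose by 2.50 ± 0.40 with Poly(I:C) at 60 min and later, the only gene of 13 called there, where 2.08% of all genes rose.

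Neighbouring pathways did not follow one direction. Of 7 pentose phosphate genes tested, 2 rose with dCA, Prps2 (0.88 ± 0.30) and Pgls (0.55 ± 0.17), where 9.80% of all genes rose. None passed with BRD-6989 (edgeR). Of 27 genes of pyruvate entry and the TCA cycle, 2 rose and 1 fell with dCA, and 3 rose and 1 fell with BRD-6989. That is 3 and 4 of 27, where 17.9% and 20.9% of all genes were called in either direction, so these counts are no higher than the background. Mpc1, a subunit of the mitochondrial pyruvate carrier, rose by 1.13 ± 0.24 and 1.31 ± 0.23, from 49.7 ± 31.3 to 99.5 ± 28.8 and 114 ± 24.1 CPM. Irg1, which makes itaconate, fell by 1.85 ± 0.24 and 1.37 ± 0.22. Pdk4, a kinase that blocks pyruvate dehydrogenase, rose with dCA (0.59 ± 0.18), and Idh2 (1.34 ± 0.34) and Sdhc (0.55 ± 0.19) rose with BRD-6989.

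Of 20 tested genes listed as HIF-1 targets or hypoxia genes, 4 rose and 1 fell with dCA, and 3 rose and 4 fell with BRD-6989, in all 5 and 7 of 20 where 17.9% and 20.9% of all genes were called. Ankrd37 (1.88 ± 0.43 and 1.63 ± 0.43), Bhlhe40 (1.34 ± 0.34 and 1.45 ± 0.34) and Bnip3l (0.53 ± 0.14 and 0.48 ± 0.14) rose with both, and Anxa2 fell with both (-0.45 ± 0.08 and -0.54 ± 0.08). Cited2 rose with dCA (0.22 ± 0.08), and Vegfa (-0.76 ± 0.26), Egln2 (-0.69 ± 0.25) and Mif (-0.31 ± 0.08) fell with BRD-6989. The TF-seq reporter named HIF1a_9, 1 of 58 reporters and the only one named for HIF or MYC, had means of 10549 ± 1440, 11085 ± 1095 and 11313 ± 969 CPM of reporter counts (SD, n = 12). Its changes were -0.07 ± 0.04 with dCA, -0.04 ± 0.04 with BRD-6989 and -0.10 ± 0.09 with the 11 stimuli, none called (edgeR adjusted p = 0.228, 0.51 and 0.432), while 36.2%, 36.2% and 22.4% of reporters were. Without TMM scaling the first 2 turn to 0.06 and 0.10, still not called, so no direction is given for the compounds. The change with the stimuli was negative under both scalings and passed without TMM (-0.26, edgeR adjusted p = 0.0174).

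Among themselves, the 10 genes varied together only loosely. Over the 36 libraries, after removal of each pretreatment's mean, the 45 pairs of members had a median Pearson r of 0.419 (-0.0845 to 0.859), and 0.236 (-0.155 to 0.606) over the 33 libraries without Poly(I:C). The 5 other genes of at least 50 CPM most like the members' mean were Rpl28, Sh3bgrl3, Lyz1, Rpl32 and Psap (r of 0.768 to 0.789 over 36 libraries), of which Rpl28 and Rpl32 encode ribosomal proteins and Psap a lysosomal one. Without Poly(I:C) their r was 0.405 to 0.556. These libraries share plates, wells' positions and library totals, so the values are descriptions. Listed copies and relatives of the members took few UMI: Pgam5 had 603, Aldoart2 382, Aldoart1 101, Slc2a4 17 and Ldhal6b 2 in all, and Gapdhs, Pgk2 and Ldhc were at 0. Aldoart2 fell by 1.13 ± 0.31 with BRD-6989 as Aldoa did, and reads of the 2 genes may have been split in counting.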

How the data were processed

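Gene expression was measured by 3' DGE and reporters by TF-seq, in which a reporter is read through a sequence tag, in 288 wells. The authors deposited UMI counts and total read counts for 23481 genes and reporter counts for 58 reporters; per the submitters' processing notes the tools include BWA and edgeR and the build is mm10, while tool versions and counting steps were not given in the sources used here. The deposited normalized reporter values equalled the reporter counts and were not used. No wells were identical. Rn45s (22.9% to 68.3% of UMI per well) was removed before library totals. The members and lists were chosen with earlier results of these data known.

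Tests used R 4.3.3 and edgeR 4.0.16 (TMM, quasi-likelihood, 2-sided, Benjamini-Hochberg within each comparison, threshold 0.05), with scripts tested on simulated data. SE is the log2 change over the root of F. The low-count filter was filterByExpr (minimum count 10) for summed libraries and a mean of 1 UMI for single wells. Inhibitors were compared in 36 libraries with stimulus as a block, times in 72 libraries, stimuli and interactions in 180 wells, and NoStim in 24. DESeq2 1.42.0, read counts, filters, blocks, an Rn45s covariate, single wells, scaling without the members and leave-one-out were alternatives; 3 for the stimuli were added after seeing the data. The 10 members are named, from each other list up to 4 called genes each way where shown, and 5 genes most like the members. In 1 list 5 are named, the last after its value was seen. The replicate block is a plate position and not a shared animal. Promoters matched all 10 members by symbol.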

Additional observations from a re-analysis of the deposited data

Results flagged for a closer look

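Each of the 10 genes was looked at in 3 groups of 8 NoStim wells. By Dixon's test 3 of 30 groups had a well far from the others. Chance gives about 1 in 20 for normally distributed values, which low counts are not. Aldoa was 2747 CPM (UMI counts per 1000000) in the DMSO well of 90 min, and the next was 1512. Pgk1 was 1329 in the BRD-6989 well of 30 min, and the next was 731. Slc2a1 was 93.4 in the DMSO well of 15 min, and the next was 30.6. These 8 wells held 5 UMI of Slc2a1 in all, and 6 of them were at 0.

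The compounds differed from each other, by the direct test, in Gpi1 (0.29), Aldoa (0.23) and Pkm (0.16), dCA minus BRD-6989 on the log2 scale. Poly(I:C) differed from the other 10 stimuli, by the direct test at 60 min and later, in Eno1 (0.89), Gpi1 (0.84), Tpi1 (0.68), Ldha (0.59) and Pkm (0.52). That test was added after the Poly(I:C) calls were seen.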

How the results depend on the processing

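One plate per pretreatment, 1 well per time and 1 UMI of Slc2a1 in a median well limit what these data resolve. Members called with dCA were 6, and 4 to 8 under the alternatives, 5 to 7 when 1 condition was left out. With BRD-6989 they were 9, and 7 to 9, except 3 with the Rn45s share as a covariate, where calls over all genes went from 1190 to 199 (dCA 1019 to 615). Between dCA and BRD-6989 the 3 calls became 1 with read counts, without the filter and in wells of 60 min and later, and 0 with the Rn45s share and in single wells (where 27.9% of calls were higher with dCA against 60.4%); leaving out 1 condition gave 0 to 3. Without the replicate block these 3 calls became 0 (59 genes in place of 164), Pkm over time 0 of 1 and Gapdh with dCA in NoStim wells 0 of 1; dCA had 4 calls and BRD-6989 9. Pkm over time was 0 of 1 with read counts and in DMSO alone. The 6 stimulus calls became 2 in wells of 120 min and later and 0 in DMSO alone (5 wells a stimulus). In NoStim wells the Rn45s share gave 2 calls with dCA and 0 with BRD-6989 in place of 1 each. Signs turned, with no call, for Slc2a1 with dCA (-0.07, Rn45s share) and BRD-6989 (-0.87, Rn45s share; -0.12, wells of 60 min and later; down to -0.06 when 1 condition was left out, up to 0.29), for Pgk1 with BRD-6989 (-0.13, Rn45s share), for dCA minus BRD-6989 in Ldha (-0.03, single wells) and Pgk1 (0.17, Rn45s share), and for Slc2a1 with LPS at 15 to 45 min (-0.06). The cause of these changes was not tested. Of 653 values of single genes under alternatives, 553 kept direction and side of the threshold.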
